A study of Caenorhabditis elegans with 2 samples.

Results

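The genes described here are 5 chromatin factor genes of Caenorhabditis elegans: zfp-1, dot-1.1, let-526, swsn-1 and swsn-4. They were picked by name, with their SMA-9 peaks known, from 19985 annotated protein-coding genes. Every peak whose summit lay in the gene body or up to 5 kb upstream was taken. Genome binding of SMA-9, a zinc finger protein related to fly Schnurri that works with BMP-like signalling, was mapped in second-stage larvae (L2, whole animals) with ChIP-seq, in which chromatin is immunoprecipitated and its DNA sequenced. There was 1 group with 2 biological replicates. All larvae came from strain OP130, which carries unc-119(ed3) III and the insertion wgIs130 for an eGFP-tagged sma-9, and the sexes were pooled. Signal from a whole larva mixes all its tissues, so a peak cannot be assigned to a cell type. A peak shows enriched DNA, and neither expression of the gene nor an effect of SMA-9 on it was measured.

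The 5 genes belong to a pair of machineries that act on nucleosomes. ZFP-1 is the homologue of mammalian AF10. It works with DOT-1.1, the counterpart of DOT1L, an enzyme that methylates histone H3 on lysine 79 in transcribed genes. SWI/SNF is a remodelling complex that uses ATP to slide or evict nucleosomes. SWSN-4 is its ATPase, SWSN-1 is a core scaffold subunit of the SMARCC class, and LET-526 is the ARID-domain subunit of the BAF form of the complex. In C. elegans, SWI/SNF is known for roles in asymmetric cell division and in cell fate during development.

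The DNA under the zfp-1 summits is shown first, since zfp-1 held the strongest peak of the set. Each line is 200 bp of the plus strand of WBcel235 (ce11), which is the coding strand of zfp-1, with the summit at base 101. The sequence is from the RefSeq assembly. The first pair of windows belongs to thresholded peaks, and the other pair to the next strongest summits of the gene, which were not thresholded. Capitals mark the repeat GAGAGA, the SMAD site core GTCT and the GATA site core GATAA on either strand. The E-box CACGTG, the GC-rich SMAD site GGCGCC and the GC box GGGCGG were also searched, which makes 6 motifs, and had 0 matches in these 4 windows.

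zfp-1 summit of rank 18, chrIII:8802067-8802266: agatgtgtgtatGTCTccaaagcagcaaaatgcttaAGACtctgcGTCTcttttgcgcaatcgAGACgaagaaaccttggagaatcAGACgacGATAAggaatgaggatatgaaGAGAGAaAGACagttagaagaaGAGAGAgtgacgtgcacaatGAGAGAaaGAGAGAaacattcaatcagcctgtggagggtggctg
zfp-1 summit of rank 19, chrIII:8795765-8795964: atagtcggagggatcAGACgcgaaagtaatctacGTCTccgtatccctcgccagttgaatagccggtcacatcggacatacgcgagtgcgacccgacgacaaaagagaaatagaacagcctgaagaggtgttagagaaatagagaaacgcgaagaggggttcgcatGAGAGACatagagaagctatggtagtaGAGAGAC
zfp-1 summit of rank 4038, chrIII:8797306-8797505: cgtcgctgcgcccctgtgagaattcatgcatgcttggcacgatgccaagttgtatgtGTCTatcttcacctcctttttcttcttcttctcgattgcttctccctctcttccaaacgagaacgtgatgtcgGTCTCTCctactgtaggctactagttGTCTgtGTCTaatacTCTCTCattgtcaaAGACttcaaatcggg
zfp-1 summit of rank 6696, chrIII:8800092-8800291: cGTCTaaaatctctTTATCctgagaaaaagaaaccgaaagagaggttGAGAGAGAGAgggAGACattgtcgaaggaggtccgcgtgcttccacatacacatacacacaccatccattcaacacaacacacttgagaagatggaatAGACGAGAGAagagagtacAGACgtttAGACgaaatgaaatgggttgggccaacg

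Strong SMA-9 peaks lay inside zfp-1 and let-526, and the other 3 genes had only weak ones. The thresholded list of 125 peaks had 2 summits in zfp-1 and 2 in let-526, and 0 at dot-1.1, swsn-1 and swsn-4. So 2 of the 5 genes had a thresholded summit, against 0.766% of all protein-coding genes and 1.69% of the 3084 coding genes at least as long as swsn-4, the shortest of the 5. The genes were picked with these peaks in view, so nothing is read from that contrast and no test was made. Among the 125 strongest peaks of replicate 1 the counts were again 2 and 2, and among those of replicate 2 (without replicate 1) they were 2 in zfp-1 and 0 in let-526. Signal is the authors' own peak value, without a stated scale. The weakest thresholded peak, of rank 125, had a pooled signal of 34.6, and the next peak of the pooled list had 34.5.

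**Figure D1:**
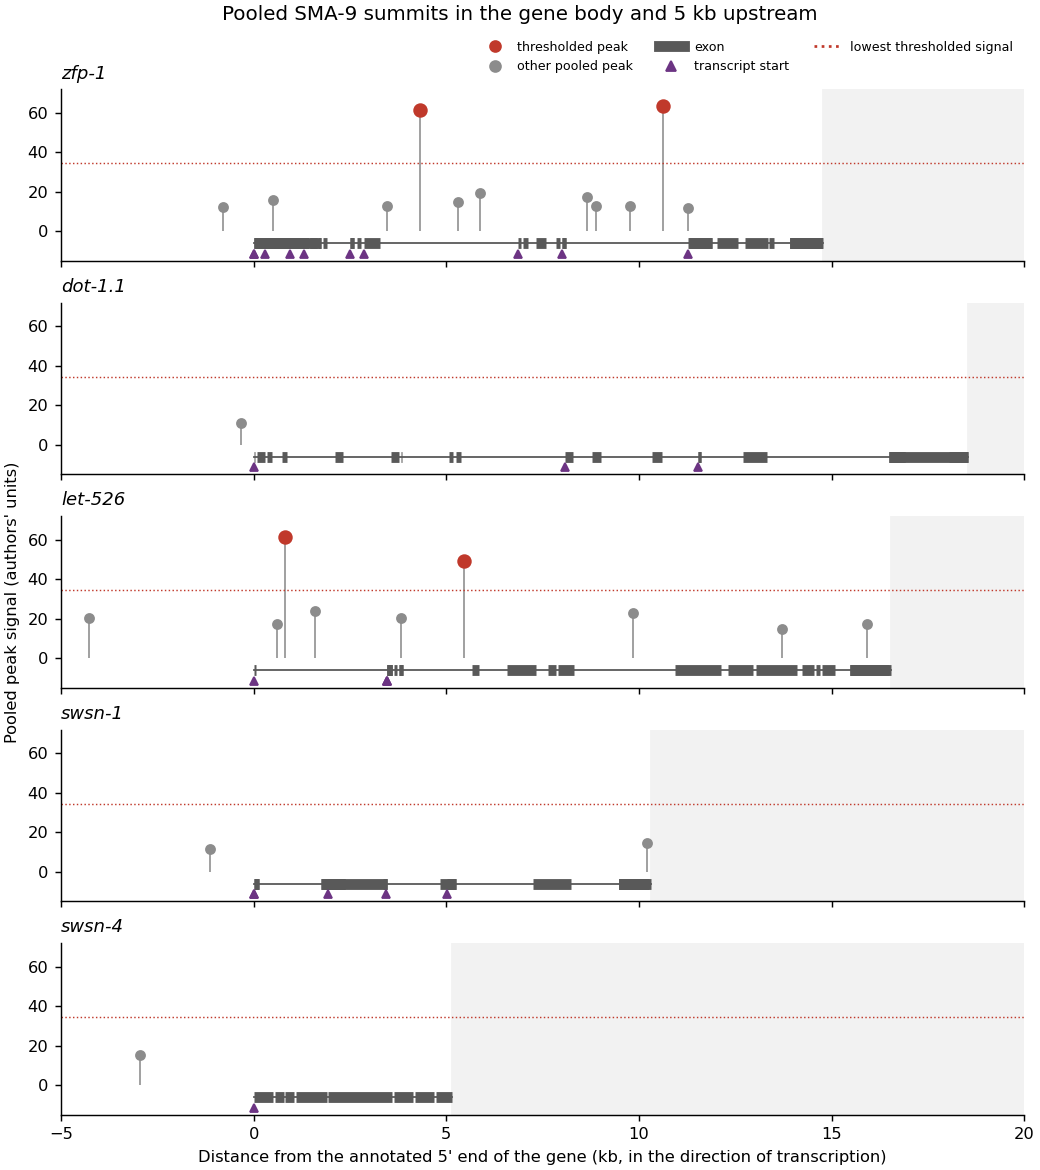
Pooled peak signal (authors' units, linear axis) at each summit against distance from the annotated 5' end of the gene (kb), with exons of all transcripts as blocks and transcript starts as triangles; grey shading marks DNA beyond the 3' end. The 4 thresholded summits stand between 49.2 and 63.4 inside zfp-1 and let-526, while the other 20 summits lie between 10.96 and 23.9.

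In zfp-1, both thresholded peaks lay in long introns between internal transcript starts. The gene (WBGene00006975) spans III:8791535-8806305 on the plus strand and has 11 annotated transcripts with 10 different starts. Introns are numbered here from the 5' end after exons of all transcripts are merged, which leaves 14 in zfp-1. The stronger peak, III:8801975-8802358, had its summit at III:8802167 in intron 10 (III:8799646-8802818). It lay 652 bp upstream of the start of the short transcript F54F2.2c.2. Intron 5 (III:8794825-8798397) held the other one, III:8795673-8796056, with its summit at III:8795865, 1456 bp downstream of an internal start and 2533 bp upstream of the next, that of F54F2.2a.1. The summits were 6302 bp apart.

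Both zfp-1 peaks were among the strongest of each replicate. At the intron 10 peak replicate 1 gave a signal of 49.1 (rank 12), replicate 2 gave 15.99 (rank 90) and the pooled reads gave 63.4 (rank 18). For the intron 5 peak these signals were 45.5 (rank 16), 17.3 (rank 59) and 61.5 (rank 19). Lists differ in their median signal (9.50 in replicate 1, 6.34 in replicate 2 and 14.1 pooled), so the replicates were compared after division by it. On that scale the intron 10 peak reached 5.17 times the median in replicate 1 and 2.52 times in replicate 2. The intron 5 peak reached 4.79 and 2.73 times. Replicate summits fell 3 bp downstream and 1 bp upstream of the pooled summit in intron 5, and 40 and 81 bp upstream of it in intron 10.

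The other 9 pooled summits of zfp-1 were weak, from 11.6 to 19.3. The strongest of them, of rank 4038, lay in intron 5, 992 bp upstream of the F54F2.2a.1 start and 66 bp upstream of the noncoding gene F54F2.13. Its window, the third shown above, includes the 5' end of that gene. Rank 6696 (signal 17.4) lay in intron 10, and its peak overlapped that of rank 21486 (12.6) next to the small coding gene F54F2.6, so that both matched the same replicate peaks. Introns 5 and 10 together held 9 of the 11 summits. A further summit, of rank 9481, lay in an exon near the 5' end, where ztf-1 and F54F2.14 overlap the gene, and 1 lay 804 bp upstream inside ztf-1 (rank 22600). Both replicate lists lacked an overlapping peak at that upstream summit and at the intron 10 summit of rank 19759.

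In let-526 the thresholded peaks also lay in introns, each with its pooled summit in an exon of a noncoding RNA gene. The gene (WBGene00002717) spans I:5300852-5317392 on the minus strand, with 5 transcripts that begin at 4 different positions. The first intron, I:5313931-5317339, held the peak I:5316389-5316772 of rank 20, whose summit was 811 bp downstream of the gene's 5' end. That summit also lay in an exon of the antisense RNA gene F48C1.15. Intron 4 (I:5311724-5313516) held the peak I:5311753-5312136 of rank 42. Its summit was 1977 bp downstream of the nearest internal start and 58 bp into the noncoding RNA gene F48C1.12. That gene is short (I:5311869-5312003), and the replicate 2 summit of this peak, at I:5311863, lay just outside it. The pooled summits of the 2 thresholded peaks were 4636 bp apart.

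Both let-526 peaks were strong in replicate 1, and the one in the first intron was much weaker in replicate 2. At the first intron peak replicate 1 gave a signal of 47.8 (rank 15), replicate 2 gave 6.42 (rank 14401) and the pooled reads gave 61.4 (rank 20). Relative to the list medians this was 5.03 against 1.01, a log2 ratio of 2.31, and so replicate 2 had a typical listed peak there. At the intron 4 peak the signals were 38.96 (rank 27), 12.8 (rank 436) and 49.2 (rank 42) in the same order, with a log2 ratio of 1.02. For comparison, log2 ratios were 1.03 and 0.81 at the zfp-1 peaks of introns 10 and 5. Over the 120 thresholded peaks present in both lists the median log2 ratio was 0.38 with an SD over peaks of 0.79, and the first intron peak had the highest ratio. Over all 125 thresholded peaks, 57 were overlapped by a replicate 2 peak of rank 90 or better, and 7 had a replicate 2 rank worse than 10000. Only 120 of the 125 had a replicate 2 peak at all, and those without one are not among the 7.

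Summits of let-526 outside the threshold were spread over the gene, from 14.8 to 23.9. The strongest, of rank 1028 (signal 23.9), lay in the first intron, 126 bp upstream of the start of F48C1.15. Rank 1458 (22.7) lay in intron 8, rank 2858 (20.5) in an exon near the internal starts, and rank 2739 (20.6) was 4266 bp upstream of the gene. The order of strength depended on the replicate. Summits in exons near the 3' end, of pooled ranks 6466 and 12991, ranked 482 and 1288 in replicate 2 and had no overlapping peak in the replicate 1 list. At all 6 separate pairs of replicate peaks in let-526 the signal relative to the list median was higher in replicate 1, against 3 of 5 in zfp-1. Pairs leave out summits with a peak in 1 replicate list only. In let-526 these were the 2 near the 3' end, with a peak in replicate 2 alone. In zfp-1 they were those of ranks 12632, 20103 and 26422, with a peak in replicate 1 alone. The pairs therefore do not set the 2 genes apart. With 2 libraries no test of a difference between the replicates was possible.

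**Figure D2:**
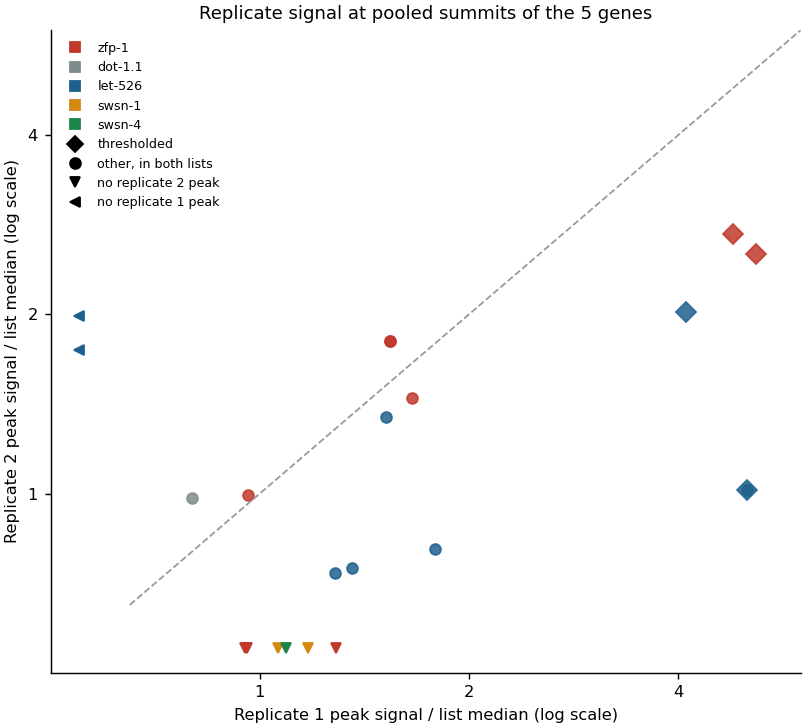
Replicate 2 against replicate 1 peak signal, each divided by the median of its own list (log axes), at the pooled summits of the 5 genes; diamonds are thresholded peaks, triangles at the edges are summits with no overlapping peak in 1 of the lists, the 2 zfp-1 summits absent from both are not drawn, and the dashed line marks equal values. The zfp-1 diamonds sit at 2.52 and 2.73 on the replicate 2 axis, and the let-526 diamonds at 1.01 and 2.02.

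The partner of ZFP-1, dot-1.1 (WBGene00021474, I:2382953-2401492, minus strand), was nearly free of listed peaks. A single pooled summit fell in its window of 23540 bp, and 0 fell in the gene body. It lay 334 bp upstream of the 5' end, between dot-1.1 and the divergent gene zwl-1, whose start was 404 bp away. Its signal was 7.60 (rank 26800) in replicate 1 and 6.23 (rank 15706) in replicate 2, and the pooled value of 10.96 ranked 29837 of 30000. In each list this value was below the median, at 0.799, 0.984 and 0.775 times it.

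The scaffold and ATPase genes of SWI/SNF had peaks near the list median in replicate 1, and no replicate 2 peak overlapped their pooled peaks. For swsn-1 (WBGene00004203, V:20239182-20249488, minus strand) the pooled list had a summit of rank 13350 (signal 14.6) in the last exon and one of rank 27390 (11.4) 1133 bp upstream. Replicate 1 had peaks of 11.1 and 10.1 there, at ranks of 8619 and 12275, and the replicate 2 list had 0 summits in the whole window. For swsn-4 (WBGene00004204, IV:11126024-11131162, plus strand) the only pooled summit, of rank 12086 (15.1), lay 2940 bp upstream in an exon of enpl-1. Replicate 1 had a peak of 10.4 there (rank 11152), and the replicate 2 list had no peak overlapping it. Within the swsn-4 gene the replicates named different exon summits, 2492 bp from the start in replicate 1 (signal 9.28, rank 16086) and 1963 and 3277 bp from it in replicate 2 (9.90 and 5.28, ranks 2503 and 23364). None of these 3 overlapped a pooled peak. Just beyond the 5 kb limit, the nearest summits upstream were at 5341 bp for swsn-1 (rank 8929) and 5360 bp for swsn-4 (rank 9635), while the farthest one counted was the let-526 summit at 4266 bp. With 10 kb upstream the best summit of swsn-4 was instead of rank 728 (signal 24.99), 8185 bp upstream and inside the gene imp-2.

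The genes also differed in how densely listed summits lay. Over the gene body and 5 kb upstream there were 0.556 pooled summits per kb in zfp-1, 0.418 in let-526, 0.131 in swsn-1, 0.0986 in swsn-4 and 0.0425 in dot-1.1. The median was 0.269 over the 3084 coding genes with windows at least as long as that of swsn-4 (10139 bp). Among these genes 6.13% were as dense as zfp-1 or denser, and 19.4% were so for let-526. At the low end, 6.36% were as sparse as dot-1.1 or sparser, 18.6% for swsn-4 and 21.5% for swsn-1. The end to count was set gene by gene, and the densities include the thresholded summits known when the genes were picked. Nothing is therefore read from these shares. A pooled summit of any strength occurred in the window of all 5 genes and of 87.8% of all coding genes. The relaxed list includes background by design, so a density describes the list and not a number of bound sites.

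**Figure D3:**
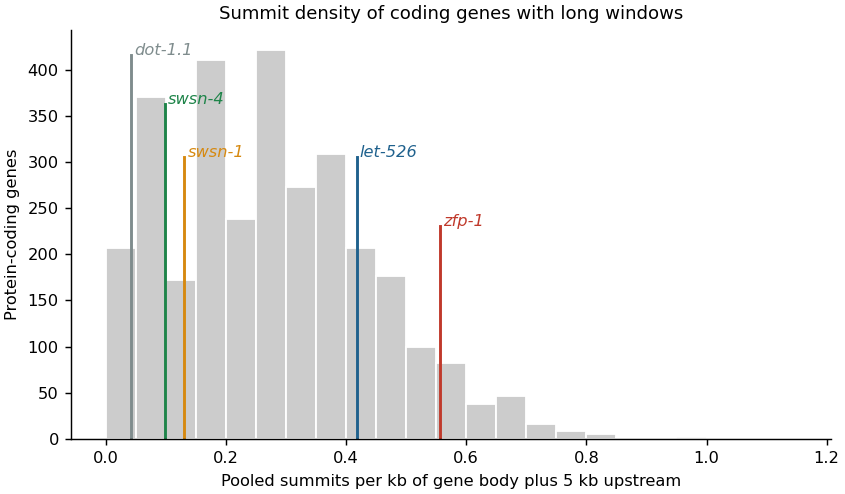
Histogram of pooled summits per kb of gene body plus 5 kb upstream for 3084 protein-coding genes, with the 5 chromatin factor genes as vertical lines (line heights carry no value). The lines of zfp-1 (0.556) and let-526 (0.418) lie above the median of 0.269, and those of swsn-1, swsn-4 and dot-1.1 lie below it.

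Of the 24 pooled summits of the 5 genes, introns held 14, exons 5 and the upstream DNA 5. All 14 intronic summits were in zfp-1 (9) and let-526 (5). The same split was not made for all pooled peaks, so it does not set these genes apart. Of the 24, 20 overlapped a peak of replicate 1 by at least 1 bp, 16 a peak of replicate 2, and 14 both. Of all 30000 pooled peaks, 20856 overlapped a peak of replicate 1, 17010 a peak of replicate 2, and 33.8% both. The 14 included the 4 thresholded peaks, known when the genes were picked. Without those it was 10 of 20. Because some pooled peaks overlap each other, the 14 matched only 12 separate pairs of replicate peaks. Nothing is read from the difference to 33.8%. By gene, both lists had a peak at 6 of 11 summits in zfp-1, 7 of 9 in let-526, the only one of dot-1.1 and 0 at swsn-1 and swsn-4. By rank, 4 of the 24 were among the 1000 strongest of the 30000 pooled peaks, the same 4 that were thresholded. Another 7 ranked below 15000, the middle of the list.

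The DNA under the strong summits was rich in G and C. In 200 bp windows GC content was 44.5% and 49.5% at the zfp-1 peaks of introns 10 and 5, and 50% and 49% at the let-526 peaks of introns 1 and 4. It averaged 34.7% over all pooled summits and 46.2% over the 125 thresholded ones. Windows 1 kb to either side averaged 42.3% and 41% at the zfp-1 peaks, and 25.8% and 41.8% at those of let-526. High GC was also found without strong signal. The 20 summits below the threshold had a median GC of 33.5%, but windows of the zfp-1 summits of rank 20103 and 21486 had 52% and 50.5%. The lowest GC of all 24 was 23%, at dot-1.1.

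**Figure D4:**
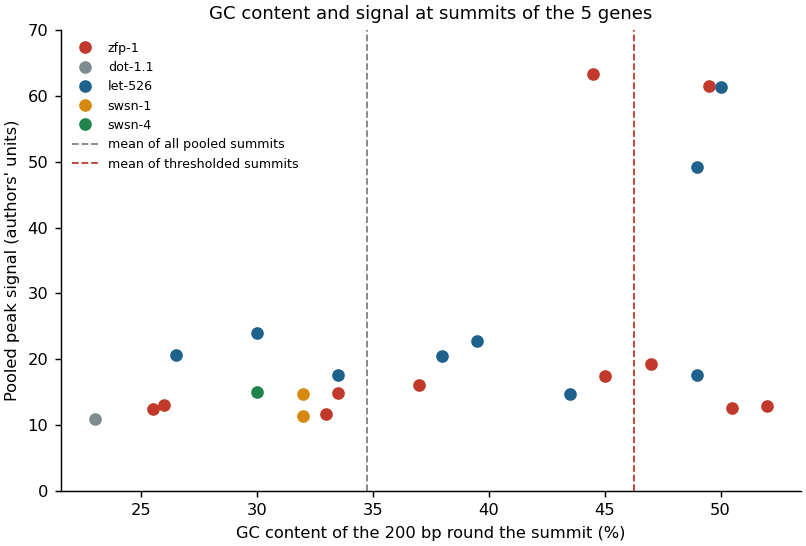
Pooled peak signal (authors' units) against GC content of the 200 bp round each of the 24 summits, coloured by gene; dashed lines are the means of all pooled summits (34.7%) and of thresholded summits (46.2%). The 4 strong summits lie between 44.5% and 50% GC, a range that also holds weak zfp-1 and let-526 summits.

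The motif GAGAGA occurred under the strong summits and under several weak ones. Motifs were sought on both strands, and matches may overlap one another (GAGAGA next to GTCT, for example). A longer GA run counts as several GAGAGA matches, as in the zfp-1 window of rank 6696, so match numbers are not numbers of separate sites. All 4 thresholded windows of these genes had GAGAGA, as did 55.2% of all thresholded windows and 10.4% of all pooled windows. In zfp-1 the intron 10 window had 4 matches, all from 14 to 64 bp downstream of the summit, and the intron 5 window had 2, at 66 and 93 bp downstream. Each let-526 thresholded window had 1 match. Of the 20 weaker windows 8 had it too, and the most matches of any window, 8, lay under the zfp-1 summit of rank 21486. The SMAD core GTCT occurred in all 4 thresholded windows (88.8% of all thresholded and 60.7% of all pooled windows) and in 10 of the other 20. The GATA core GATAA was in 2 of the 4 (32.8% and 40.1%) and in 8 of the other 20. The E-box CACGTG was in 0 of the 24 windows (19.2% and 3.40%), GGCGCC in 1 weak one (11.2% and 1.27%), and GGGCGG in the let-526 first intron window and 1 weak one (14.4% and 2.83%). These matches describe letters, not bound sites.

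At related chromatin genes the counts were low, as they are over all coding genes. In 5 lists with 39 genes, 0 had a thresholded summit, where 0.766% of all coding genes had one, so the 0 sets these lists apart in no way. Of the 39, 3 had a summit among the 1000 strongest pooled peaks, against 7.28% of all coding genes. Those 3 encode nucleosome remodellers of other families. At let-418, a Mi-2 homologue, a summit 3692 bp upstream had a signal of 21.4 for replicate 1, 9.01 for replicate 2 and 31.2 pooled (ranks 214, 4010 and 187). At chd-7, a CHD-type remodeller, one 952 bp upstream and within 1 kb of the start of linc-91 had 16.4, 14.6 and 30.4 (ranks 1159, 158 and 211). At isw-1, the ISWI ATPase, a summit in an exon 6040 bp into the gene had 16.8, 6.84 and 28.7 (ranks 999, 12103 and 281). All 3 pooled values lay below the lowest thresholded signal of 34.6.

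A pooled summit of any strength was about as frequent in the lists, at 34 of 39 genes, as over all coding genes (87.8%). Among the remaining subunits of SWI/SNF, 9 of 10 had a pooled summit in the window, and the best was of rank 2732 (signal 20.65), 1927 bp upstream of ham-3, with ranks of 25549 in replicate 1 and 2228 in replicate 2. All 4 other DOT1-family genes had one, led by dot-1.5 at rank 3487. In the list for methylation of histone H3 on lysine 4, 5 of 7 had one, led by dpy-30 at rank 6378. The Polycomb-like and lysine 9 list also held mes-4, a gene of neither class. There 5 of 6 had one, led by set-25 at rank 4057. In the list of other remodellers it was 11 of 12, and lin-53 and its neighbour rba-1 shared the same summit. The genes with 0 pooled summits in the window were phf-10, mep-1, cfp-1, wdr-5.1 and mes-4. Over the 34 listed genes with a summit the median best rank was 8180, against 7878 over the 17540 coding genes with one.

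**Figure D5:**
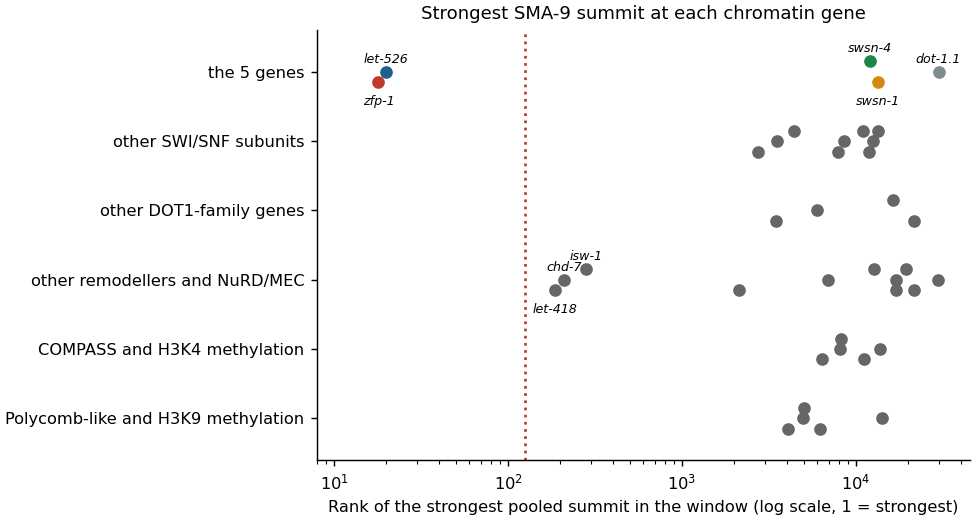
Rank of the strongest pooled summit in the window (log axis, 1 is the strongest) for the 5 chromatin factor genes and 34 related genes with a summit, by list; points are genes, their height within a row has no meaning, and the dotted line is rank 125, the end of the thresholded list. Only zfp-1 (18) and let-526 (20) lie left of the line, and let-418, chd-7 and isw-1 follow at 187, 211 and 281.

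Having more than 1 thresholded summit was rare. The window held at least 2 in 15 coding genes, 0.0751% of all, and zfp-1 and let-526 were 2 of them. By summed signal of those summits, zfp-1 (124.9) came at place 4 and let-526 (110.6) at place 6. Both were picked with these peaks known, so nothing is read from their presence or places among the 15. The other genes with at least 2, in order of count, were pqn-41 with 4 summits (summed signal 377), ZK470.2 with 3 (125.1) and, with 2 each, mdl-1 (159), nhr-14 (118), din-1 (101), pkg-2 (100.3), vhp-1 (96.8) and T28B11.1 (87.6). The adjoining genes lec-5 and H41C03.3 counted the same pair of summits (87.1). The remaining 3, beyond the 10 of highest sum, also had 2 each: letm-1 and lpin-1, which shared a pair (82.3), and W06H8.6 (78.5). In 7 of the 15, at least 2 summits lay in the gene body, as in zfp-1 and let-526. The sums rank genes within the pooled list of these 2 libraries and have no error of their own.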

How the data were processed

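The authors deposited, in build ce11, relaxed lists of peaks and background (1 per replicate and 1 from pooled reads) and a thresholded list derived from these 3, per the accompanying text of the deposited lists. Sources used here name no aligner, peak caller or rate threshold. The value used is the peak signal in column 7, deposited by the authors without a stated scale. Peaks have 1 width per list (360 bp in replicate 1, 384 bp in the others), and each relaxed list has 30000, so list length is no measure of binding. Read depth is unknown, and no interval that needs it is given. The relaxed lists also derive from 1 further file of unstated kind, so what the signal is measured against is not known here. Lists in ce10 were not used here.

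Summits were assigned with Ensembl release 115 genes (WBcel235, the ce11 coordinates), 1-based, using Python 3.11.15 with pandas 2.3.3. Peaks were ranked by signal, and a replicate peak was matched by an overlap of at least 1 bp, taking the strongest. The placement of summits was tested on simulated data. No test was made, since the 5 genes, the 5 gene lists and the 6 motifs were chosen with earlier results of these data known. Named genes are the 5, their strongest summits with genes at them, listed genes with a thresholded or top summit, and coding genes with as many thresholded summits; chd-7 and isw-1, W06H8.6, letm-1 and lpin-1, the listed genes without a summit, and lin-53 with rba-1 were picked after their values were seen. Alternatives were the upstream limit, the set of strong peaks, the overlap rule and each replicate alone.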

Additional observations from a re-analysis of the deposited data

How the results depend on the processing

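The count of 2 genes and 4 thresholded summits was the same with the gene body alone, with 2 or 10 kb upstream, with the 62 strongest thresholded peaks and with the 1000 strongest pooled peaks. With the 125 strongest peaks of a single replicate, the gene count ranged from 1 (without replicate 1) to 2 (without replicate 2) and the summit count from 2 to 4. Without replicate 1 the peaks of zfp-1 remained, at ranks 59 and 90 of replicate 2, and the best of let-526 ranked 436. Summits in both replicate lists numbered 8 instead of 14 when they had to lie within 100 bp, and 11 with an overlap of at least 50% of the pooled peak. The listed chromatin genes with a strong summit went from 0 to 3 with the 1000 strongest pooled peaks. Of 52 alternative values, 41 stayed within 1.5 times the main count or, for ranks, within 1 SD of the 2 replicate ranks. For swsn-1, with 1 replicate rank, any change counts as a move. The 41 is no measure of robustness. The range allowed for ranks came from the replicate ranks themselves, so it is wider where the replicates disagree. All 4 thresholded summits lay in gene bodies and among the 62 strongest peaks, so several settings could not lose them. Without replicate 1 the best rank moved from 18 to 59 at zfp-1 and from 20 to 436 at let-526. Best ranks also moved at swsn-4, to 728 with 10 kb upstream and to 2503 without replicate 1. At swsn-1 they moved to 8929 with 10 kb upstream and to 8619 without replicate 2, and at dot-1.1 to 15706 without replicate 1. Ranks 728 and 8929 belonged to other summits, beyond 5 kb upstream. Rank 2503 belonged to a replicate 2 summit that overlapped no pooled peak. The cause of the other moves was not tested. With the gene body alone dot-1.1 and swsn-4 had no pooled summit, and swsn-1 had none without replicate 1. No paired analysis was possible because there is 1 group.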
